A study of Mus musculus with 8 samples.

Results

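The Schlafen (Slfn) genes were followed in tumor-associated macrophages (TAMs) of WT and miR-21-/- mice. Members were the rows of the expression table that carry the symbol Slfn1, Slfn2, Slfn3, Slfn4, Slfn5, Slfn8, Slfn9 or Slfn10-ps, 8 of 53247 genes. The rule reads symbols only. The Lewis lung carcinoma line (LLC) was implanted s.c. in mice of strain C57/BL6, 8 weeks old, and tumors were taken 14 days later, at an age of 10 weeks. From these tumors CD45+, CD11b+, MHCII+, F4/80+ cells were sorted and their mRNA was sequenced, in 4 WT and 4 miR-21-/- samples. The deletion is constitutive, so every cell of a miR-21-/- host lacked miR-21, whereas the implanted LLC cells were the same in both groups. The question was which Schlafen genes differ between TAMs with and without miR-21.

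The Schlafen proteins take their name from the German word for sleep, because Slfn1 was found as a gene that holds thymocytes in a resting state. Slfn1 and Slfn2 are short proteins, Slfn3 and Slfn4 are of intermediate length, and Slfn5, Slfn8 and Slfn9 are long and carry a helicase-like region at the C-terminus. Many members are induced by interferon in myeloid cells, Slfn2 keeps T cells quiescent, and Slfn4 is known from activated macrophages and other myeloid cells. The genes arose by duplication, and Slfn10-ps is a pseudogene of the long group.

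All 8 members lie in a cluster of 264 kb on chromosome 11 (GRCm38, chr11:82951349-83215154), 3.37 Mb from Mir21a, the gene of miR-21 (chr11:86584067-86584158). In the order of the chromosome they are Slfn5 (plus strand, start 82951349), Slfn9 (minus, 82978390), Slfn8 (minus, 83002158), Slfn10-ps (minus, 83028130), Slfn2 (plus, 83065112), Slfn1 (plus, 83116849), Slfn4 (plus, 83175186) and Slfn3 (plus, 83191330). The annotated coding sequences hold 337 codons in Slfn1, 378 in Slfn2, 602 in Slfn4, 640 in Slfn3, 884 in Slfn5 and 910 in both Slfn8 and Slfn9. Transcripts of Slfn10-ps were 92.2% identical to Slfn8 over 3530 aligned bases and 92.1% identical to Slfn9 over 3439 bases, and Slfn3 was 92.5% identical to Slfn4 over 1713 bases.

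The 3 minus-strand neighbors Slfn10-ps, Slfn8 and Slfn9 are shown by the stretch of 60 bases at which the coding sequences of Slfn8 and Slfn9 first align with Slfn10-ps without a gap, because reads had to tell these genes apart. Each stretch lies within a single exon (GENCODE vM21 models, GRCm38, minus strand), and capitals mark bases that differ from Slfn10-ps. Slfn8 differs at 4 of the 60 bases and Slfn9 at 10.
Slfn10-ps (exon 2, chr11:83036116-83036175): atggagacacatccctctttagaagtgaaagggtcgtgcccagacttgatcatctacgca
Slfn8 (exon 3, chr11:83017656-83017715): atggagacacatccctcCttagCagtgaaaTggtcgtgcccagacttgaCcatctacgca
Slfn9 (exon 2, chr11:82988242-82988301): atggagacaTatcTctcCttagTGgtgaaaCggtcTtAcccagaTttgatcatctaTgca
Of all windows of 50 bases in the transcripts of Slfn10-ps, 19.7% occur letter for letter in another gene, most often in Slfn9 (13.5%). The same share was 14.6% for Slfn8 and 11.9% for Slfn9, 16.0% for Slfn3 and 11.3% for Slfn4, but 4.27% for Slfn2 and 0.606% for Slfn1. For Slfn5 it was 11.1%, of which the antisense gene Slfn5os accounts for the largest share (7.38%). Values of genes with a high share are uncertain, because how reads that match several genes were assigned is not given in the sources used here, nor is the use of strand.

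The mature miRNA that the mutant mice lack is printed with its seed, bases 2 to 8, in capitals, because the members were searched for it (RefSeq, GRCm38.p6, minus strand, chr11:86584120-86584141).
mmu-miR-21a-5p: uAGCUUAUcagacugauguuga
No annotated 3′ UTR of the 7 protein-coding members, and neither transcript of Slfn10-ps, holds the 7-base match ATAAGCT. Of the longest 3′ UTRs of 21028 mouse genes, 7.19% hold it. Its last 6 bases alone occur once in each transcript of Slfn10-ps and in none of the 3′ UTRs of the other members, and 23.4% of the longest 3′ UTRs hold them. Slfn10-ps was searched over whole transcripts of 3621 and 2673 bases, so its match is not comparable with these counts in 3′ UTRs. The absence of these letters says nothing about other ways in which a miRNA can reach a gene.

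The promoters, 250 bases before to 50 after the annotated start (RefSeq, GRCm38.p6), were searched on both strands for the core of an interferon response element, GAAANNGAA, and for the palindromic core bound by STAT dimers, TTCNNNGAA. The table of promoters held 7 members. The first core was found in Slfn5, Slfn8 and Slfn9 and in 8.56% of all 32851 promoters, and the second was found in none of the 7 members and in 8.30% of all promoters. Slfn5 has the first core at positions -155 and -132 and Slfn9 at -44, counted from the annotated start. Slfn8 has a pair of annotated starts, and its single core lies at -47 from one start and at -135 from the other. The windows around them are printed in the direction of transcription with the cores in capitals, because these 3 members differed in how they varied between samples.
Slfn5 (plus strand, chr11:82951935-82951990): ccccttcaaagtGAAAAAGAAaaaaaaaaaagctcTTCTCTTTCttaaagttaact
Slfn8 (minus strand, chr11:83020837-83020869): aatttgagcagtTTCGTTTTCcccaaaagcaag
Slfn9 (minus strand, chr11:82991854-82991886): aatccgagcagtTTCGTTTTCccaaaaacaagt
The windows of Slfn8 and Slfn9 hold the same core on the opposite strand. A match of letters is a description and not a site of binding, and the promoters of Slfn1, Slfn2, Slfn3 and Slfn4 hold neither core.

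The values were taken as CPM, a count per 1e+06 reads, and their commonest low value as 1 read. The depth read from them was 20.2 to 33.4 in units of 1e+06 reads a sample. On that reading 1 read was worth 0.0300 to 0.0495 CPM. The labels could not be checked by the targeted gene, since Mir21a was listed at the offset of 0.0001 CPM in all 8 samples. The host gene of miR-21, Vmp1, which encodes a protein of autophagy, rose from 115 to 133 CPM in WT to 373 to 426 CPM in miR-21-/- TAMs (log2 fold change 1.67, adjusted p = 7.1e-07, limma). All 11 macrophage markers were detected, and their summed level was 10638 to 12200 CPM in WT and 10138 to 11718 CPM in miR-21-/- TAMs. Single markers moved apart: Fcgr1, an Fc receptor gene, passed the threshold as higher (log2 fold change 0.75, adjusted p = 0.000561, limma), whereas Adgre1, the gene of the sort marker F4/80 (-0.38, adjusted p = 0.0014), and Csf1r, the receptor gene for the macrophage growth factor (-0.48, adjusted p = 0.00538), had values below WT without overlap but did not pass. Summed levels of B cell markers were 57.6 to 98.1 CPM in WT and 15.4 to 24.7 CPM in miR-21-/- samples, and those of tumor, epithelial and fibroblast markers 88.8 to 148 and 23.5 to 56.7 CPM. The part of these other cells in the results was not tested, and in bulk samples fewer cells of a type and less RNA per cell cannot be told apart.

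To pass the threshold, a gene needed both an adjusted p (Benjamini-Hochberg, limma on log2(CPM + 1)) no higher than 0.005 and a change of more than 1.5-fold. Of the 8 members 1, Slfn10-ps, passed and rose in miR-21-/- TAMs, and 0 fell. At an unadjusted p under 0.05 in limma, 3 members were higher (Slfn1, Slfn2 and Slfn10-ps) and 0 lower, beside 12.3% of all genes tested higher and 34.1% lower at that limit. Over all 13850 genes tested, 986 or 7.12% passed, 2.89% higher and 4.23% lower in miR-21-/- TAMs, and the 1 member of 8 is read against these shares. All 8 members passed the filter on low values.

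**Figure D1:**
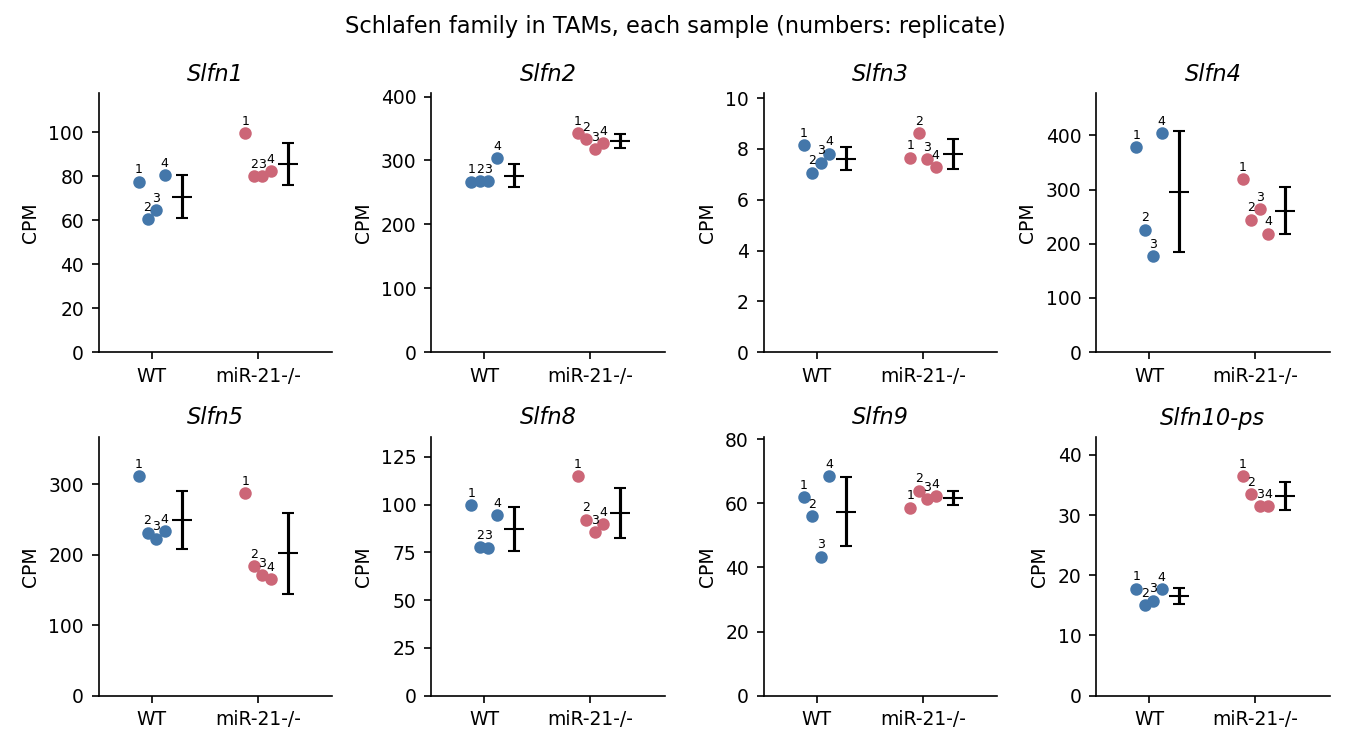
CPM of each of the 8 Schlafen genes in the 4 WT (blue) and 4 miR-21-/- (red) TAM samples, each panel with its own axis from 0. Numbers beside points are replicates, and black marks are means with SD (n = 4). Slfn10-ps lies between 15.0 and 17.7 CPM in WT and between 31.5 and 36.4 CPM in miR-21-/- samples, and Slfn2 is the only other gene whose groups do not overlap.

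Slfn10-ps, the transcribed pseudogene, was measured at 17.7, 15.0, 15.8 and 17.6 CPM in WT samples 1 to 4 and at 36.4, 33.5, 31.5 and 31.5 CPM in miR-21-/- samples 1 to 4. The lowest miR-21-/- sample was well above the highest WT sample. Mean levels were 16.5 ± 1.36 CPM (SD, n = 4) and 33.2 ± 2.34 CPM (SD, n = 4). The fitted increase was 1.95-fold on the log2(CPM + 1) scale, on which low genes appear to change less than in CPM. The log2 fold change was 0.96 with a standard error of 0.076, a 95% confidence interval of 0.79 to 1.13 and an adjusted p of 2.5e-05 (limma).

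Its closest relatives did not share this difference. Slfn8, of the long group, was measured at 99.8, 77.8, 77.5 and 94.3 CPM in WT samples and at 115, 92.0, 85.6 and 89.7 CPM in miR-21-/- samples. The groups overlapped, and the log2 fold change of 0.13 ± 0.11 (SE) did not pass the test (adjusted p = 0.391, limma), with 0.04 without miR-21-/- replicate 1 and 0.19 without WT replicate 1. Slfn9, also of the long group, was measured at 62.0, 55.9, 43.3 and 68.4 CPM in WT and at 58.7, 63.9, 61.2 and 62.2 CPM in miR-21-/- samples. Every miR-21-/- value of Slfn9 lay within the range of the WT values, and its log2 fold change was 0.12 ± 0.12 (SE, adjusted p = 0.464, limma). The 95% confidence intervals of the log2 fold change reached 0.37 for Slfn8 and 0.38 for Slfn9, both below the lower bound for Slfn10-ps.

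Within a sample, Slfn10-ps could be set against either relative, which removes the sample's depth. The ratio of Slfn10-ps to Slfn8 in CPM was 0.190 ± 0.0109 in WT (range 0.178 to 0.204) and 0.350 ± 0.0228 in miR-21-/- TAMs (range 0.317 to 0.368). The ratio to Slfn9 was 0.294 ± 0.0483 in WT (range 0.258 to 0.365) and 0.541 ± 0.0536 in miR-21-/- TAMs (range 0.506 to 0.621). Neither ratio overlapped between the groups, with a two-sided exact permutation p of 0.0286 each, the smallest that 4 against 4 samples allow. Both ratios were chosen after the values had been seen.

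The remaining long member, Slfn5, was measured at 311, 231, 223 and 234 CPM in WT samples 1 to 4 and at 288, 184, 171 and 165 CPM in miR-21-/- samples 1 to 4. Replicate 1 stood above the other samples in both groups, and the groups overlapped through that miR-21-/- sample. Means were 250 ± 41.2 and 202 ± 57.5 CPM (SD, n = 4), with a log2 fold change of -0.33 ± 0.17 (SE, adjusted p = 0.158, limma). Without miR-21-/- replicate 1 the log2 fold change was -0.51 (adjusted p = 0.00906, limma), still outside the threshold. Leaving out WT replicate 1 instead gave -0.22 (adjusted p = 0.345, limma). Summed classical monocyte markers were also highest in these samples, at 1392 CPM in WT replicate 1 and 1357 CPM in miR-21-/- replicate 1 against 731 to 1026 CPM in the others, and their part in the level of Slfn5 was not tested. Of the 9 monocyte markers 0 passed the threshold (limma), and 4 had an unadjusted p under 0.05, 2 of them higher and 2 lower. The ratio of Slfn5 to Slfn8 was 2.86 ± 0.274 in WT and 2.09 ± 0.289 in miR-21-/- TAMs, and the groups overlapped (two-sided exact permutation p = 0.0571, chosen after the values had been seen).

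Of the short members, Slfn2 was measured at 267, 268, 268 and 303 CPM in WT and at 343, 334, 318 and 327 CPM in miR-21-/- samples. All 4 miR-21-/- samples were above all 4 WT samples, although WT replicate 4 stood apart from the other WT samples. Means were 276 ± 17.8 and 330 ± 10.7 CPM (SD, n = 4), a fold change of 1.20, which did not reach the fold limit. The log2 fold change was 0.26 ± 0.059 (SE) with a 95% confidence interval of 0.13 to 0.39 and an adjusted p of 0.00752 (limma), above the limit of 0.005. At an adjusted p of 0.05 without a fold limit, Slfn2 and Slfn10-ps passed, 2 of 8 members, as did 36% of all genes tested.

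Slfn1, the founding member of the family, was measured at 77.4, 60.6, 64.5 and 80.4 CPM in WT and at 99.6, 79.9, 79.9 and 82.4 CPM in miR-21-/- samples. The groups overlapped by less than 1 CPM, at WT replicate 4. Means were 70.7 ± 9.68 and 85.5 ± 9.52 CPM (SD, n = 4), with a log2 fold change of 0.27 ± 0.10 (SE) that did not pass the test (adjusted p = 0.0637, limma). Over 18 alternative settings its adjusted p ranged from 0.0244 to 0.167 (limma), and it passed the threshold in none.

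The intermediate members gave no difference past the test. Slfn4 was measured at 378, 226, 177 and 405 CPM in WT and at 319, 244, 264 and 218 CPM in miR-21-/- samples. WT replicates 1 and 4 were above all other samples, and WT replicate 3 was the lowest of the 8. Means were 296 ± 112 and 261 ± 42.6 CPM (SD, n = 4), and the 95% confidence interval of the log2 fold change, -0.65 to 0.43, was the widest of the family (adjusted p = 0.747, limma). Slfn3 was low, at 8.14, 7.07, 7.46 and 7.82 CPM in WT and 7.66, 8.63, 7.61 and 7.27 CPM in miR-21-/- samples. Its log2 fold change was 0.03 ± 0.082 (SE, adjusted p = 0.818, limma), with a 95% confidence interval of -0.15 to 0.21.

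**Figure D2:**
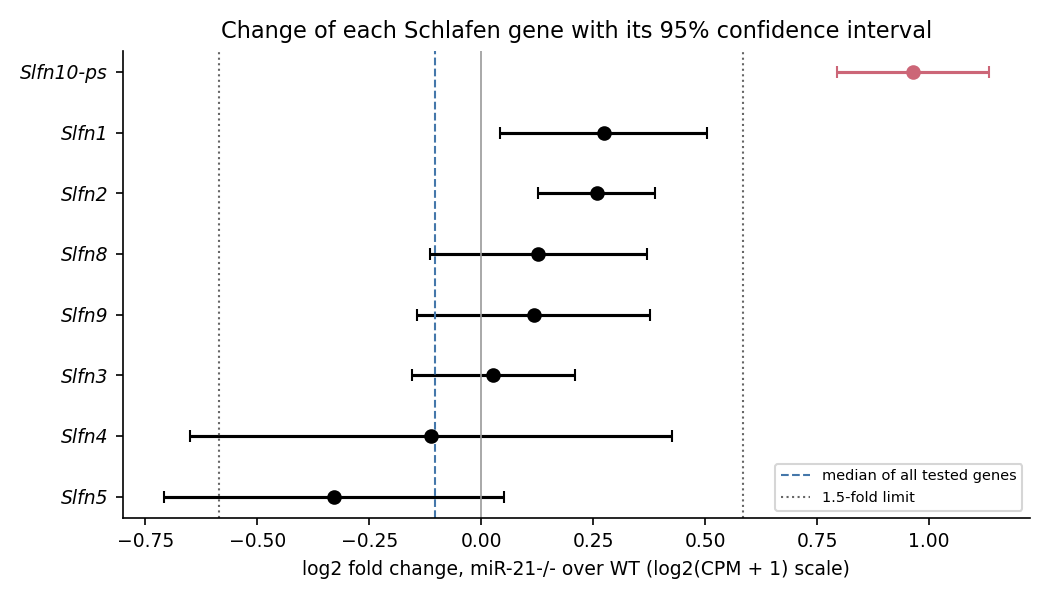
Log2 fold change of each member, miR-21-/- over WT on the log2(CPM + 1) scale, with its 95% confidence interval from limma (n = 4 a group). Dotted lines mark the 1.5-fold limit and the dashed line the median of all genes tested, -0.10. The interval of Slfn10-ps (0.79 to 1.13) lies outside the limit and those of the other members do not.

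Over the family, 6 of 8 log2 fold changes were above 0 with a median of 0.12, beside 33.2% of all genes tested and a median of -0.10, and under median-of-ratios scaling, which moved the median of all genes to 0.00, 7 of 8 were above 0 because that of Slfn4 turned to 0.00. The 4 values of each genotype did not overlap for 2 of 8 members, Slfn2 and Slfn10-ps, both higher in miR-21-/- TAMs. Over all genes tested 35.1% did not overlap, and in 9.44% all miR-21-/- values were above all WT values. Summed over the 8 members the level was 877 to 1221 CPM in WT and 984 to 1267 CPM in miR-21-/- samples, so that the groups overlapped.

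Between genes, levels were compared per kb of annotated exon. Slfn2 was the most abundant member at 166 ± 10.7 CPM per kb in WT and 199 ± 6.45 in miR-21-/- TAMs. In the order of the WT means it was followed by Slfn4 (74.8 ± 28.2 and 65.9 ± 10.7 CPM per kb), Slfn5 (39.5 ± 6.51 and 32.0 ± 9.09), Slfn1 (37.9 ± 5.19 and 45.8 ± 5.11) and Slfn8 (21.3 ± 2.79 and 23.3 ± 3.19). The lowest were Slfn9 (9.62 ± 1.79 and 10.3 ± 0.368), Slfn10-ps (4.57 ± 0.376 and 9.17 ± 0.646) and Slfn3 (2.23 ± 0.136 and 2.28 ± 0.171). In miR-21-/- TAMs the mean of Slfn1 was above that of Slfn5. Slfn4 and Slfn5 overlapped in WT, Slfn5 and Slfn1 in both genotypes, and Slfn5 and Slfn8 in miR-21-/- TAMs. Slfn9 and Slfn10-ps were apart in WT, whereas in miR-21-/- TAMs the highest Slfn10-ps sample reached 10.1 CPM per kb and the lowest Slfn9 sample was at 9.84.

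**Figure D3:**
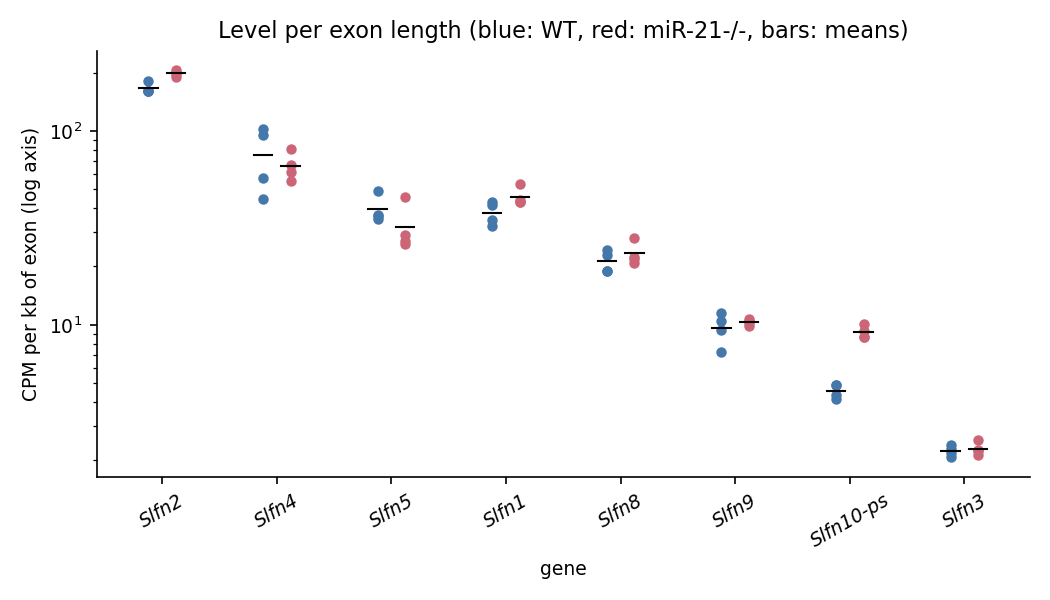
CPM per kb of annotated exon for the 8 members on a log axis, in WT (blue) and miR-21-/- (red) samples, with means as bars (n = 4). The order is that of the WT means, from Slfn2, at 166 and 199 CPM per kb, to Slfn3, at 2.23 and 2.28 CPM per kb. Slfn10-ps meets the level of Slfn9 in the miR-21-/- samples only.

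Other Schlafen genes were at or near 0. Slfn14, a long member known from platelets, was above the offset in 2 of 8 samples, at no more than 0.120 CPM, the worth of 3 reads, and Slfnl1 in 2 of 8, at no more than 0.0399 CPM, the worth of 1 read. The antisense gene Slfn5os was measured at 1.56 to 2.59 CPM in WT and 0.756 to 2.29 CPM in miR-21-/- samples (log2 fold change -0.24, adjusted p = 0.370, limma). Its value is uncertain, because 55.7% of its windows of 50 bases occur in another gene, with 45.5% found in Slfn5.

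Interferon-regulated genes were examined because the family is known to respond to interferon. Of 22 genes induced by interferon-γ, 21 passed the threshold, each in the direction of higher values in miR-21-/- TAMs, and the list had a median log2 fold change of 1.60. They ranged from the GTPase gene Tgtp1 (3.38) to the transcription factor gene Irf8 (0.54), the only one that did not pass. The 25 genes known from type I interferon responses had a median log2 fold change of 0.13, with 16 above 0, down to -0.47 for Oas2, an enzyme gene of the antiviral oligoadenylate pathway (adjusted p = 0.00975, limma, not past the threshold). Among regulators of these genes, Irf1 rose from 121 ± 17.9 to 376 ± 51.7 CPM (SD, n = 4, log2 fold change 1.63, adjusted p = 1.6e-05, limma). Irf7 (log2 fold change -0.06, adjusted p = 0.832) and Irf9 (0.04, adjusted p = 0.635) did not pass. The median of the Schlafen members, 0.12, was thus close to that of the type I list, and Slfn10-ps, at 0.96, was within the range of the interferon-γ list.

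How the members varied from sample to sample was compared with the mean profile of each list, both centred on their mean over the 8 samples in log2(CPM + 1). This comparison, and the genes named from it for members other than Slfn10-ps, were chosen after the values had been seen. Slfn8 had a root mean square difference of 0.066 from the mean profile of the type I list, and 1 of the 13850 genes tested was closer. Slfn1 had a difference of 0.096, and 8 genes were closer. Both were high in miR-21-/- replicate 1, at 0.33 and 0.36 above their means, and low in WT replicates 2 and 3, at -0.22 and -0.23 for Slfn8 and -0.35 and -0.26 for Slfn1, and the mean of the list was at 0.37, -0.24 and -0.38 in these samples. Slfn9 followed with a difference of 0.161 (129 genes closer), Slfn2 with 0.178 (275 genes closer) and Slfn3 with 0.199 (673 genes closer). For Slfn4 22.3% of genes were closer and for Slfn5 49.0%. The measure counts the size of the swings as well as their order, so that Slfn3, with an SD of 0.081 over the 8 samples, came nearer to the list than Slfn4, with an SD of 0.41, although Slfn4 was, like the list, above its mean in WT replicates 1 and 4 and miR-21-/- replicate 1 and below it in WT replicates 2 and 3. The gene nearest to Slfn1 among all tested was Stat2, which encodes a transcription factor of type I interferon signaling, with a difference of 0.044. The nearest genes to the others were Cox17 for Slfn2, Psmc5 for Slfn3 and the unnamed gene models Gm26637 for Slfn5, Gm7019 for Slfn8 and Gm20768 for Slfn9, none of them on the interferon lists.

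Slfn4 was also set beside single genes. Of all genes tested the nearest to Slfn4 was Irf7, with a root mean square difference of 0.158. That is below the SD of Slfn4 over the 8 samples, 0.41. Irf7 is the transcription factor gene that amplifies type I interferon responses and a member of the type I list. Irf7 was measured at 214, 161, 130 and 256 CPM in WT and 213, 166, 155 and 177 CPM in miR-21-/- samples. WT replicates 4 and 1 were the highest and WT replicate 3 the lowest of the 8 samples for both genes. Since Irf7 was picked for its likeness to Slfn4, this shared order is a description. Slfn4 ranked the 4 WT samples and the first 2 miR-21-/- samples as Irf7 did and differed in the order of the other two.

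**Figure D4:**
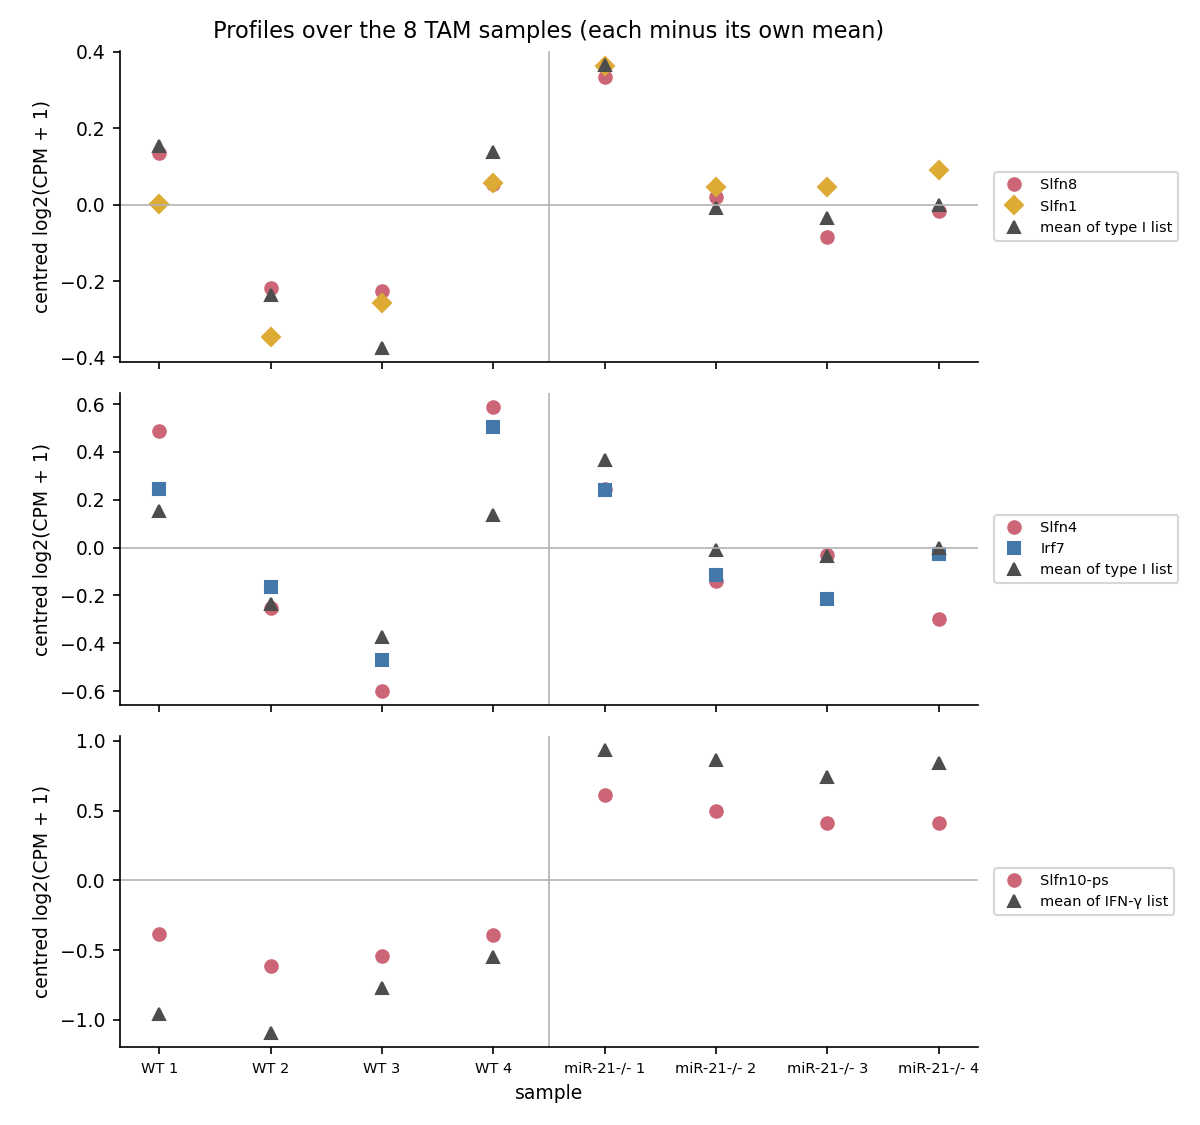
Log2(CPM + 1) minus the gene's mean over the 8 samples, for members beside Irf7 and the mean of each interferon list (25 type I and 22 interferon-γ genes). In the upper panel Slfn8 and Slfn1 lie near the mean of the type I list, in the middle panel Slfn4 and Irf7 are both highest in WT 4 and lowest in WT 3, and in the lower panel Slfn10-ps and the interferon-γ list are above 0 in all miR-21-/- samples and below 0 in all WT samples.

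Slfn10-ps had a root mean square difference of 0.42 from the type I list, with 84.3% of genes closer. From the interferon-γ list its difference was 0.38, with 0.917% of genes closer. Both differences were of similar size, and the shares differ because few genes lay that near to the interferon-γ list. The small share follows in part from Slfn10-ps being higher in every miR-21-/- sample. The 3 genes with the most similar profile over the 8 samples were Crem, a transcription factor gene of cAMP signaling (root mean square difference 0.072), Gvin1, a gene of a large interferon-induced GTPase (0.078), and Tbc1d9 (0.079). Their levels in miR-21-/- TAMs were 1.82-, 1.88- and 1.98-fold those in WT on the log2(CPM + 1) scale, which their choice by likeness to Slfn10-ps fixes in large part, so that these values are a description.

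The genes around the cluster were examined since the family lies on the chromosome of the deleted gene. Beside 7.12% of all genes tested, 5 of 21 other tested genes (23.8%) within 0.5 Mb of either end of the cluster passed. All 5 were higher in miR-21-/- TAMs. They were the chemokine genes Ccl4, Ccl5, Ccl6 and Ccl9 and E230016K23Rik, the highest with a log2 fold change of 1.84, and the nearest of them started 311 kb beyond the end of the cluster. Between them and the cluster 5 tested genes did not pass, nor did any of 8 that lie before that end, of which Nle1 was the lowest in log2 fold change (-0.39, adjusted p = 0.00859, limma). The processed pseudogene Gm11425, next to Slfn10-ps, had a log2 fold change of 0.39 (adjusted p = 0.0501, limma), with 94.0% of its windows of 50 bases found in another gene. The count of 5 fell to 3 under a pseudocount of 10 and without WT replicate 2, 3 or 4 or miR-21-/- replicate 2, and to 1 without the filter, and it was 9 at an adjusted p of 0.05 without a fold limit. Within 5 Mb of Mir21a 86 genes were tested and 10 passed, 8 higher and 2 lower, from the chemokine gene Ccl8 (2.54) to Akap1 (-0.68). That is 11.6% of the genes tested in the window, beside 7.12% of all genes tested (2.89% higher and 4.23% lower). The windows overlap, and the 10 include all 5 genes named near the cluster as well as Vmp1, the host gene of miR-21. The count fell to 4 genes without the filter, to 5 under a pseudocount of 10 and to 6 without WT replicate 2 or without miR-21-/- replicate 2. At an adjusted p of 0.05 without a fold limit it was 32, where 36% of all genes tested passed.

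**Figure D5:**
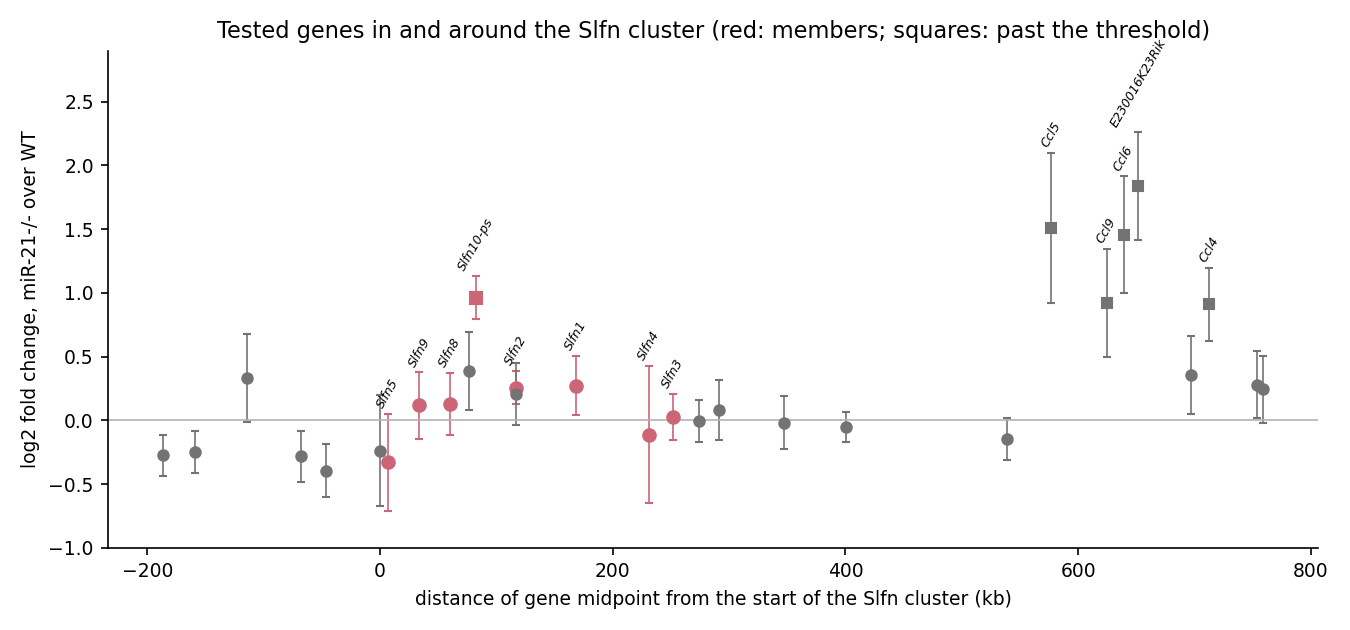
Log2 fold change, miR-21-/- over WT, with 95% confidence intervals of tested genes against the distance of their midpoint from the start of the Slfn cluster in kb. Red marks are Schlafen members, grey marks other genes, and squares passed the threshold. Slfn10-ps (0.96) stands above its neighbors, and the next genes past the threshold are chemokine genes and E230016K23Rik from 311 kb beyond the cluster.

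Genes of S phase and mitosis were examined because the family is known for control of proliferation. Of 15 tested, 0 passed in limma and 1 had an unadjusted p under 0.05 (lower), with a median log2 fold change of 0.09 and values from -0.29 (Mcm2, a subunit of the replicative helicase) to 0.31 (Top2a, topoisomerase II).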

How the data were processed

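Per the labels, RNA of sorted TAMs was extracted with a kit for small samples and mRNA libraries were made with the Kapa mRNA Hyper prep kit. The authors' processing notes name STAR, Partek 7.0 and build mm10. The table of normalized counts that they deposited was taken as CPM values raised by an offset of 0.0001. Column totals were 788099 to 807758 CPM, and 37 mitochondrial genes were at the offset throughout. Read steps gave the depth, but at most 74.0% of values up to 20 reads were whole within 0.02 reads, so no count test was run.

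Log2(CPM + 1) was fitted with limma 3.58.1 (R 4.3.3, eBayes with trend, genotype only) over the 13850 genes whose mean reached 1 per 1e+06 of their column totals, with Benjamini-Hochberg adjustment over all of them. The limits are those the study states. In simulated data of these 13850 genes, 200 were changed, none of them among the lowest in level. Noise was drawn for each gene and sample separately, without shifts shared by a sample. Of the genes changed by a log2 of 1, 91% were called, as was 1 unchanged gene. These results do not cover low genes or samples that stand apart. Within-sample ratios were compared by two-sided exact permutation tests. Transcripts were aligned with BLAST 2.17.0. Alternatives were another pseudocount, filter, scaling, model or limit, a replicate block, and leaving out each sample. Named genes were all members, the highest and lowest of each list, lists' called members where at most 4, the 3 profiles nearest to a called member, and Irf1, Irf7 and Irf9 as regulators. A result that this rule gives is not reported here. The members and lists were chosen with earlier results of these data known. Whether replicates came from separate mice is not stated beyond their being biological replicates, and miR-21-/- replicate 1 has a title with a pair of numbers in it. Marker lists of other cells were summed, with T cell sums of 28.3 to 49.1 CPM in WT and 13.3 to 54.3 in miR-21-/- samples, NK cell 3.59 to 11.3 and 7.18 to 19.0, dendritic cell 11.2 to 19.9 and 15.2 to 38.4, and neutrophil 823 to 1238 and 608 to 789 CPM.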

Additional observations from a re-analysis of the deposited data

Results flagged for a closer look

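In 4 of 22 groups checked, the highest sample lay far from the other 3 of its genotype (Dixon's test at the 95% level). Chance flags about 1 in 20 groups. Slfn1 was at 99.6 CPM in miR-21-/- replicate 1, against 79.9 to 82.4 CPM in the other miR-21-/- samples. Slfn2 was at 303 CPM in WT replicate 4, against 267 to 268 CPM in the other WT samples. Slfn5 was at 311 CPM in WT replicate 1, against 223 to 234 CPM in the other WT samples. It was also at 288 CPM in miR-21-/- replicate 1, against 165 to 184 CPM in the other miR-21-/- samples.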

How the results depend on the processing

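Slfn10-ps passed under all 18 alternatives run, with log2 fold changes of 0.70 to 1.07 and adjusted p of 1.5e-05 to 0.000421, and 1 member passed in each but an adjusted p of 0.05 without a fold limit, which gave 2 members and 4982 genes. All genes past the threshold numbered 452 with a pseudocount of 10 and 515 without the filter, against 986. Median-of-ratios scaling gave 870 genes, 59.8% of them higher, and quantile normalization 828, 59.3% higher, against 40.6%, and the former turned Slfn4 to 0.000176. Leaving out 1 sample turned the sign of Slfn3 (log2 fold change -0.017 to 0.056), Slfn4 (-0.33 to 0.065) and Slfn9 (-0.0094 to 0.21), none of them past the threshold, and the causes were not tested. With a replicate block 922 genes passed, the 1 member among them. The replicate numbers of miR-21-/- samples are their order in the series and differ from those in their titles, so the block joined samples by order. Samples of the same number did not deviate together (correlations of -0.14 to 0.22), and only number 4 was the best match both ways. The numbers were therefore not taken as pairs, and pairs by title were not checked. No member lay below the filter and no symbol was listed on several rows, so the alternatives planned for those cases gave no value. The adjusted p of Slfn5 was 0.0119 with the replicate block, 0.0497 with array weights and 0.00906 without miR-21-/- replicate 1, against 0.158, and its change stayed outside the threshold in each. It was 0.345 without WT replicate 1 and highest, at 0.397, under median-of-ratios scaling (limma).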
